A study of Mus musculus with 6 samples.

Results

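The serum amyloid A family of the mouse was examined in primary hepatocytes after interleukin-1β (IL-1β). The 4 members, Saa1, Saa2, Saa3 and Saa4, were taken by gene symbol from a table of 23282 genes, and all 4 passed the filter on low counts that left 11657 genes for testing. Hepatocytes were isolated from the livers of C57BL/6N mice by collagenase perfusion, plated, and kept for 24 h after a change of medium, either with no treatment (control, 3 samples) or with IL-1β recombinant protein (3 samples). No genetic modification or further agent was named for either group. The age, sex and number of mice behind these cultures were not given in the sources used here. A dose is stated there for recombinant proteins in a parallel treatment of hepatocytes over the same time, but not for the sequenced cultures themselves. RNA was read by QuantSeq, a method that sequences the 3′ end of each polyadenylated transcript, so a count stands for a transcript end and does not grow with transcript length. Nothing in the labels tied the samples to separate animals or cultures, so the p-values measure the spread between these samples, which may be technical.

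Serum amyloid A proteins are small apolipoproteins that the liver secretes in the acute phase response and that travel on high-density lipoprotein (HDL). Saa1 and Saa2 encode the classical acute phase forms in liver and plasma, and serum amyloid A can deposit as amyloid in long-lasting inflammation. Saa3 is known as an inducible form made outside the liver as well, for example by macrophages and adipocytes, and Saa4 is known as a form made constitutively in liver. IL-1β acts through its receptor IL1R1, the adaptor MyD88 and the transcription factor NF-κB, and the promoters of acute phase genes are classically bound by NF-κB and C/EBP factors.

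The members lie side by side on chromosome 7, given here on GRCm38 as in the deposited table. Saa3 spans 46711998 to 46715676, Saa4 46727999 to 46732543 and Saa1 46740499 to 46742980, all on the minus strand, and Saa2 spans 46751833 to 46754314 on the plus strand. The GENCODE transcript nearest in length to each entry has 4 exons. The table lists Saa2 among the older names of Saa1 and Saa1 among those of Saa2, so the names used here follow its current symbols and positions. The coding sequences of Saa1 and Saa2 were 95.1% identical over 366 aligned bases, whereas Saa3 was 79.1% identical to Saa1 and Saa4 was 69.6% identical to Saa1.

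The 250 bases upstream of each annotated start are shown because the 4 neighbouring genes rose together and to a different degree. The sequences are from RefSeq (GRCm38.p6), which held an entry for all 4 members, and are written 5′ to 3′ on the strand of the gene. They cover chr7:46742981-46743230 for Saa1, chr7:46751583-46751832 for Saa2, chr7:46715677-46715926 for Saa3 and chr7:46732604-46732853 for Saa4. The windows of Saa1, Saa2 and Saa3 adjoin the entries given above. That of Saa4 does not, since its RefSeq start lies upstream of the entry's end at 46732543. Capitals mark matches on either strand to the degenerate NF-κB consensus GGRRNNYYCC, to the C/EBP motif TTNNGNAA, to the STAT motif TTCNNNGAA or to TATAAA. In these letters R stands for A or G, Y for C or T and N for any base.
Saa1: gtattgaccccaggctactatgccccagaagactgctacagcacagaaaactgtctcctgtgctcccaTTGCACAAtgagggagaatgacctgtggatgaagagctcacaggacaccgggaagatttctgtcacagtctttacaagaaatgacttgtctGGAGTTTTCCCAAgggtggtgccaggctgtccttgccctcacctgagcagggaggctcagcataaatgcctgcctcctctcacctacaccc
Saa2: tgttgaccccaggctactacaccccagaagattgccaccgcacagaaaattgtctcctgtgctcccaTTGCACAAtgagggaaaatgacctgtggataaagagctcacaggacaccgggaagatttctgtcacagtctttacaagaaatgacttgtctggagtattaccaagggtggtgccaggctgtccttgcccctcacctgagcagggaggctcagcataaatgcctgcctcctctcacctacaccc
Saa3: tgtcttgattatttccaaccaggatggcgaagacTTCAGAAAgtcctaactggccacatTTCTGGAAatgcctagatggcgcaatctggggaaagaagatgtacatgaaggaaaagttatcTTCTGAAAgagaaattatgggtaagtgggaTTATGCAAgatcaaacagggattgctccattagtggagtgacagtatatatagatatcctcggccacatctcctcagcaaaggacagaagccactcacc
Saa4: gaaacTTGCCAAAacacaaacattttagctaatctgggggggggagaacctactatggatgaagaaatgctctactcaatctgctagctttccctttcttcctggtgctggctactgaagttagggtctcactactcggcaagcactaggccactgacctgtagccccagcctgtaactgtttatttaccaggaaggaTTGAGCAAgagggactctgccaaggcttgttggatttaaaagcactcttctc

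The C/EBP motif was matched in all 4 windows, at 4 places in Saa3, at 2 in Saa1, at 2 in Saa4 and at 1 in Saa2. It is a short motif, matched in 36.8% of 32851 promoter windows of the same length. The NF-κB consensus was matched in the Saa1 window, from 91 to 82 bases before the start and overlapping a C/EBP match, and in 9.55% of all windows. The match reads GGAGTTTTCC and has A after the opening GG on both strands, so a consensus with G there would not match it. The consensus as used was not matched in the windows of Saa2, Saa3 and Saa4, although those of Saa1 and Saa2 were 95.6% identical over 249 aligned bases. The STAT motif and TATAAA, matched in 7.02% and 12.4% of all windows, were matched in none of the 4. These matches describe letters in a window and not bound sites.

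All 4 members were higher after IL-1β (adjusted p below 0.05 in edgeR's quasi-likelihood test), where 6.97% of the 11657 genes tested were higher by the same rule. In either direction, 13.4% of the genes tested passed. The control and IL-1β samples of each of the 4 members did not overlap, which held in 28.2% of genes tested. The increase in mean level was 16.3-fold for Saa3, 4.82-fold for Saa4, 2.45-fold for Saa1 and 2.07-fold for Saa2. The median log2 fold change over all genes tested was -0.0018. Levels are given below as CPM, the count divided by a library total scaled by TMM and set to a common size, and in such bulk samples a change in the number of expressing cells and a change in RNA per cell cannot be told apart.

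Saa3 was the most strongly induced member. Its level was 759, 1245 and 1294 CPM in controls 1, 2 and 3, and 16564, 18809 and 18259 CPM in IL-1β samples 1, 2 and 3. The lowest IL-1β sample was 12.8 times the highest control, and control 1 stood below the other controls. The group levels were 1099 ± 296 CPM and 17877 ± 1170 CPM (SD, n = 3 each), which is 4.02 ± 0.13 (SE) as a log2 fold change, with an edgeR adjusted p of 1.12e-17. By log2 fold change, Saa3 had rank 21 of 11657 genes tested.

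After IL-1β, Saa3 transcript ends outnumbered those of albumin, the main plasma protein made by hepatocytes. Alb was at 15596, 16398 and 16556 CPM in the controls and 13462, 14595 and 14211 CPM after IL-1β. The count of Saa3 was therefore 4.87%, 7.59% and 7.81% of that of Alb in controls 1, 2 and 3, and 123%, 129% and 128% of it in IL-1β samples 1, 2 and 3. Among all rows of the table, Saa3 had rank 136, 74 and 69 by count in the controls and rank 2 in every IL-1β sample. The single row above it was the ribosomal RNA precursor Rn45s.

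Saa1, the most abundant member in untreated cells, rose less in fold terms. It was at 2470, 2575 and 2737 CPM in the controls and at 6135, 6496 and 6460 CPM after IL-1β. The samples of a group lay close together, and the groups were 2594 ± 134 and 6364 ± 199 CPM (SD, n = 3 each). The log2 fold change was 1.29 ± 0.057 (SE; edgeR adjusted p = 8.54e-15).

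Saa2, the paralog of Saa1 that is transcribed from the opposite strand, followed Saa1 closely. Its controls were at 1837, 1932 and 2054 CPM and its IL-1β samples at 3857, 4157 and 4014 CPM. The log2 fold change was 1.05 ± 0.059 (SE; edgeR adjusted p = 7.12e-13), the smallest of the family, and the lowest IL-1β sample was still 1.88 times the highest control.

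Saa4 was the least abundant member and the second most induced. Its controls were at 69.0, 104 and 105 CPM, with control 1 again the lowest, and its IL-1β samples were at 421, 455 and 463 CPM. The log2 fold change was 2.27 ± 0.10 (SE; edgeR adjusted p = 1.6e-14). Its level after IL-1β, 447 ± 22.2 CPM (SD, n = 3), remained below the control level of every other member.

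**Figure D1:**
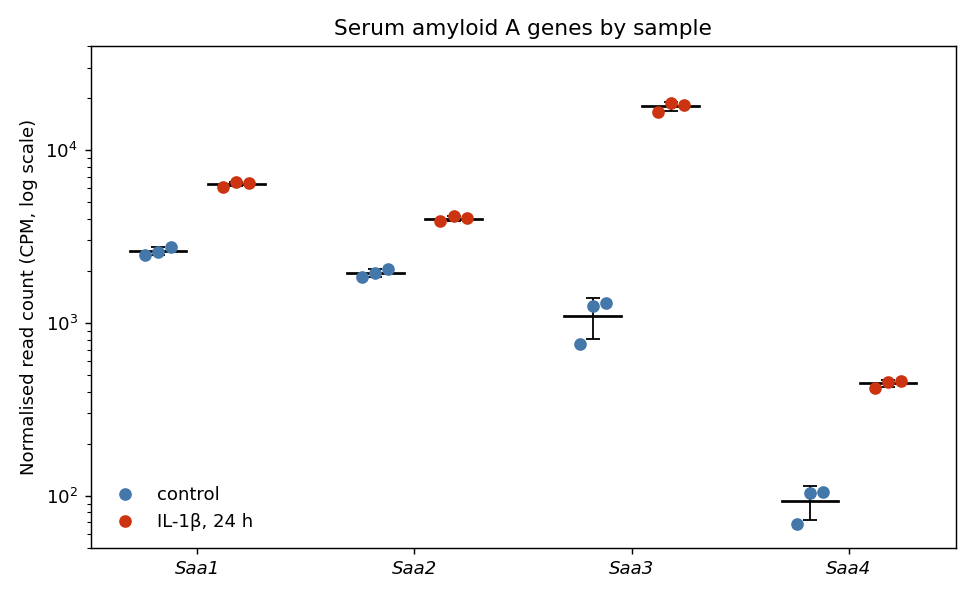
Normalised read count (CPM, log axis) of the 4 serum amyloid A genes in each control (blue) and IL-1β (red) sample, with a line at the group mean and bars of ± SD (n = 3). The groups do not overlap for any gene, and Saa3 goes from 1099 CPM, below Saa1 and Saa2, to 17877 CPM, above both.

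The spread within the controls differed between the members. The coefficient of variation among controls was 26.9% for Saa3 and 22.2% for Saa4, against 5.17% for Saa1 and 5.60% for Saa2. Among the 232 genes tested with at least 500 CPM in the controls, its median was 4.97%. The wide spread of Saa3 and Saa4 came with control 1, which lay 0.49 and 0.40 below the control mean on the log2 scale. After IL-1β the coefficient of variation was 6.55% for Saa3 and 4.98% for Saa4. Control 1 was also the lowest control for Cebpd, at 32.0 CPM against 45.5 and 56.5 CPM, and for Cd14, at 178 CPM against 236 and 275 CPM. It was the highest control for Apoa1, at 2948 CPM against 1987 and 1852 CPM. The same held for Cebpb, at 99.7 CPM against 75.7 and 66.3 CPM, and for Nfkb1, at 34.1 CPM against 16.8 and 21.8 CPM. Control 1 lay between the other controls for Lcn2, at 837 CPM against 819 and 961 CPM. It did so too for Nfkbia, at 268 CPM against 259 and 279 CPM. These genes are examples, and the share of all genes with control 1 at an extreme was not computed. Without control 1, the log2 fold change was 3.82 for Saa3, 2.09 for Saa4, 1.26 for Saa1 and 1.01 for Saa2.

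Summed over the 4 members, the family took 0.519% to 0.643% of all counts in the control libraries and 2.65% to 2.95% in the IL-1β libraries. The summed level rose from 5726 ± 518 to 28693 ± 1537 CPM (SD, n = 3 each), or, as a log2 fold change, 2.33 ± 0.063 (SE; edgeR adjusted p = 1.14e-18). Saa3 supplied 73.0% of the gain in CPM, Saa1 16.4%, Saa2 9.01% and Saa4 1.54%.

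The make-up of the family shifted towards Saa3, while Saa1 stayed above Saa2 and Saa4 stayed the smallest. In the controls, Saa1 made up 45.4 ± 2.32% of the family's counts, Saa2 34.0 ± 1.56%, Saa3 19.0 ± 3.64% and Saa4 1.61 ± 0.23% (SD, n = 3). After IL-1β, Saa3 made up 62.3 ± 0.77%, Saa1 22.2 ± 0.52%, Saa2 14 ± 0.28% and Saa4 1.56 ± 0.033% (SD, n = 3). The share of Saa3 was 14.8%, 21.3% and 20.9% in the controls and 61.4%, 62.9% and 62.5% after IL-1β, so that the groups stood apart (two-sided exact permutation p = 0.1, and 3 against 3 samples cannot give a smaller one). The share of Saa4 overlapped between the groups (exact permutation test, two-sided p = 0.8). Dividing the counts by the transcript width in the table left the order of the members within each group as it was, and the order still differed between the groups. Saa3 was then at 21.4 ± 4.04% in the controls and 66.1 ± 0.75% after IL-1β (SD, n = 3). This division could hardly have changed the order within a group, since the widths of Saa1, Saa2 and Saa3 were close (607, 610 and 531). That of Saa4, the rarest member, was the longest (2033).

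**Figure D2:**
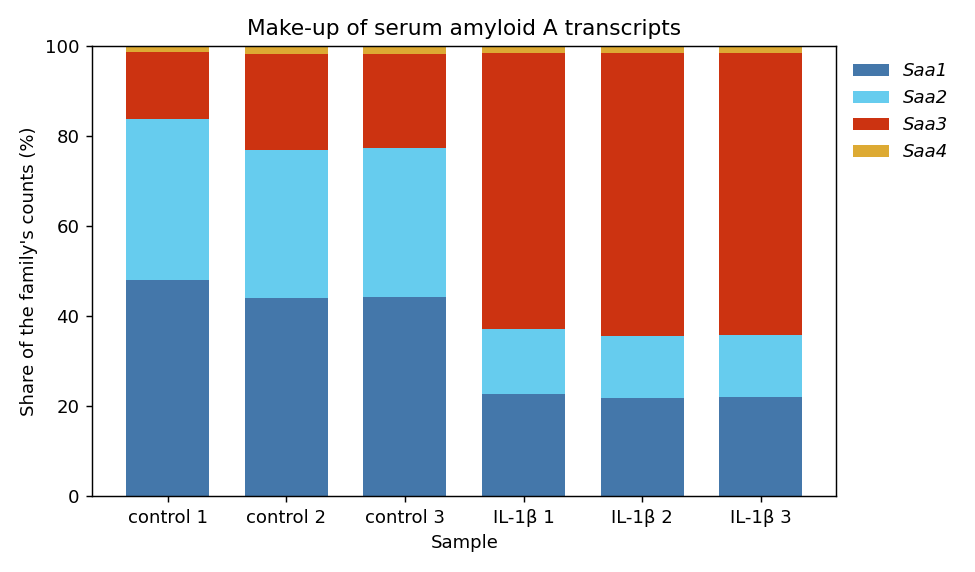
Share (%) of each serum amyloid A gene in the summed counts of the family, with 1 stacked bar for each sample. Saa1 and Saa2 together fill 77.0% to 83.9% of the control bars, and Saa3 fills 61.4% to 62.9% of the IL-1β bars.

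To ask whether the members responded to a different degree, the ratio of their counts was taken within each sample, which cancels library scaling. All 6 pairs of members differed between the groups without overlap, where 28.2% of single genes tested did not overlap. The 6 ratios come from 4 genes and are not independent, and the share over other gene pairs was not computed. Each pair had a two-sided exact permutation p of 0.1, also 0.1 after adjustment over the 6 pairs and the smallest possible. The log2 ratio of Saa3 to Saa4 rose from 3.46, 3.58 and 3.62 in the controls to 5.30, 5.37 and 5.30 after IL-1β, a change of 1.77 (standard error 0.054). The log2 ratio of Saa1 to Saa3 went from 1.70, 1.05 and 1.08 to -1.43, -1.53 and -1.50, a change of -2.77 (standard error 0.21). Saa1 thus went from 2.42 times the count of Saa3 to 0.356 times it.

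Saa1 and Saa2 were the most tightly coupled pair. Their log2 ratio was 0.43, 0.41 and 0.41 in the controls and 0.67, 0.64 and 0.69 after IL-1β. The change of 0.25 (standard error 0.013) was small beside the other pairs, yet larger than the spread within either group, whose SDs were 0.0074 and 0.022 (n = 3 each). As a ratio of counts, Saa1 went from 1.34 to 1.59 times Saa2. Against Saa4, Saa1 and Saa2 lost ground, with changes in the log2 ratio of -0.997 (standard error 0.17) and -1.25 (standard error 0.16).

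**Figure D3:**
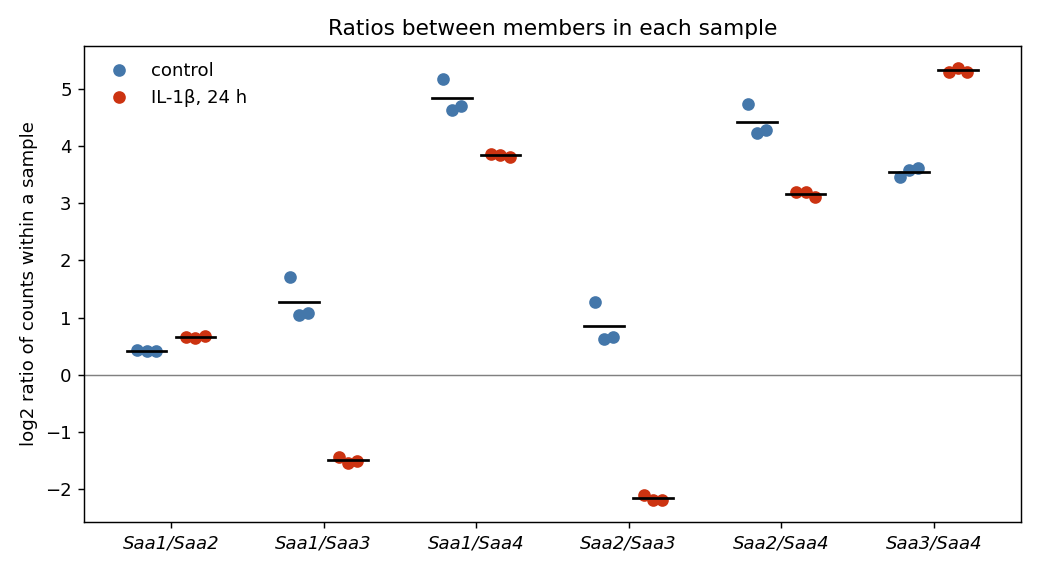
The log2 ratio of the counts of each pair of members within a sample, for control (blue) and IL-1β (red) samples, with a line at the mean (n = 3 per group). The ratio of Saa1 to Saa2 moves by 0.25 and that of Saa2 to Saa3 by -3.01, and control 1 stands apart in the pairs that join Saa1 or Saa2 with Saa3 or Saa4.

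Close paralogs can exchange reads, and the counting tool and its handling of reads with several matches were not given in the sources used here. In the last 500 bases of the GENCODE transcripts, none of the 426 windows of 75 bases of any member occurred in the transcript of another gene. Saa1 and Saa2 shared a longest run of 73 bases, and 20.2% of their windows differed by at most 2 bases from the other. Between Saa1 and Saa3 3.52% of windows differed by at most 2 bases, and between Saa4 and the other members every window differed by at least 16. Between Saa2 and Saa3 every window differed by at least 7. Whether exchanged reads, from Saa3 or between Saa1 and Saa2, took part in the change of the ratio of Saa1 to Saa2 was not tested. The sum of Saa1 and Saa2, which does not depend on how reads were divided between them, rose from 4535 ± 243 to 10373 ± 341 CPM (SD, n = 3 each), or, as a log2 fold change, 1.19 ± 0.057 (SE; edgeR adjusted p = 2.53e-14).

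The genes beside the cluster did not move as the members did. Of 12 genes within 250 kb, 8 were tested, of which 2 were higher and 1 was lower (6.97% and 6.44% of all genes tested), with log2 fold changes from -0.64 to 0.28. Saal1 (serum amyloid A-like 1), 1347 bases from Saa3, had 10.9, 10.7 and 12.7 CPM in the controls and 6.30, 6.72 and 8.91 CPM after IL-1β. Its log2 fold change was -0.64 ± 0.20 (SE; edgeR adjusted p = 0.0362), a call that was lost without control 2 or 3 or without IL-1β sample 1 or 2 (0.0582 to 0.156). On the side of Saa2, Hps5 (log2 fold change 0.13, adjusted p = 0.825), a subunit of a lysosome-related trafficking complex, did not pass the test. Gtf2h1, a subunit of the general transcription factor TFIIH, was at 210 ± 5.61 and 246 ± 6.91 CPM (SD, n = 3 each), a log2 fold change of 0.23 (adjusted p = 0.0198 from edgeR), which did not pass with total-count scaling (0.0993), without control 2 (0.0862) or without IL-1β sample 1 (0.0913). Ldha, a lactate dehydrogenase subunit, had 0.18 (adjusted p = 0.156) and Sergef had 0.035 (adjusted p = 0.949).

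Among genes that encode receptors, signalling proteins and transcription factors of Saa induction, the receptor and the C/EBP factors rose. Of 28 listed, 26 were tested, 9 were higher and 1 was lower (6.97% and 6.44% of all genes tested), with a median log2 fold change of 0.20. Il1r1, the signalling receptor for IL-1β, was at 33.0, 40.0 and 36.5 CPM in the controls and 162, 152 and 142 CPM after IL-1β, or, as a log2 fold change, 2.06 ± 0.090 (SE; edgeR adjusted p = 6.35e-15). Its co-receptor Il1rap was low, with 9 to 42 counts in the controls and 40 to 60 after IL-1β, and differed by 0.98 on the log2 scale (adjusted p = 0.112), which passed in 3 of the 10 alternatives that kept all samples and without control 3 (0.0163). Cebpd rose from 44.7 ± 12.3 to 216 ± 14.6 CPM (SD, n = 3 each), a log2 fold change of 2.27 (adjusted p = 2.34e-13 from edgeR). Cebpb rose by 0.74 and Stat3, the mediator of IL-6 signalling, by 0.37 on the log2 scale (adjusted p = 1.37e-05 and 4.72e-04 from edgeR).

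Transcripts of the NF-κB subunits Rela and Nfkb1 differed less between the groups than those of the members. Rela, at 145 CPM in both groups, differed by -0.00025 ± 0.073 (SE) on the log2 scale (adjusted p = 0.999). Nfkb1 had 0.55 (adjusted p = 0.0288), with overlapping samples, and it did not pass in DESeq2 (0.314) or without any 1 of controls 2 and 3 and IL-1β samples 1, 2 and 3 (0.0562 to 0.204). Targets of NF-κB that restrain or modify it rose, with log2 fold changes of 1.54 for the inhibitor Nfkbia (adjusted p = 3.25e-15) and 0.95 for the nuclear cofactor Nfkbiz (adjusted p = 2.58e-09). Hnf4a, a factor of hepatocyte identity, fell by 1.04 on the log2 scale (adjusted p = 1.62e-09 from edgeR) and was the gene of this list that fell.

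On the side of receptors and HDL partners, 16 of 19 listed genes were tested, 4 were higher and 4 lower (6.97% and 6.44% of all genes tested), with a median log2 fold change of 0.028. Cd14, a co-receptor of Toll-like receptors, changed by 1.64 on the log2 scale (adjusted p = 1.6e-12), and Abca1, the transporter that loads cholesterol onto HDL, had 1.01 (adjusted p = 6.57e-09). Tlr2, a receptor reported to respond to serum amyloid A, rose from 7.20 ± 1.47 to 14.1 ± 0.58 CPM (SD, n = 3 each; adjusted p = 8.45e-04 from edgeR). The HDL apolipoprotein Apoe changed by -0.26 on the log2 scale (adjusted p = 0.00291) and the HDL enzyme Pon1 -0.32 (adjusted p = 0.0145), which did not pass without control 1 (0.0976) or without IL-1β sample 2 (0.0773) or 3 (0.073). Apoa1, the main HDL protein, had -0.33 (adjusted p = 0.0413), with overlapping samples, and it did not pass in DESeq2 (0.465), without control 1 (0.395) or without any 1 of the IL-1β samples (0.0674 to 0.252). Of the 4 lower genes, 2 passed in DESeq2, 1 without control 1 or IL-1β sample 2, and 2 without IL-1β sample 1 or 3. Scarb1, the HDL receptor, had -0.19 (adjusted p = 0.212). Selenos, listed in the table as Vimp and described as a receptor for serum amyloid A, had 0.030 (adjusted p = 0.851). The formyl peptide receptor Fpr2, the chemotactic receptor for serum amyloid A on leukocytes, had 0 to 2 counts in the controls and 1 to 8 after IL-1β, too few to test.

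Of 7 proteases known to cleave serum amyloid A, 4 were tested and 3 were higher, against 6.97% of all genes tested. Cathepsin B (Ctsb) changed by 0.59 on the log2 scale (adjusted p = 7.37e-08), and cathepsin D (Ctsd) had 0.23 (adjusted p = 0.0154), which did not pass with total-count scaling (0.0766). The matrix metalloproteinase Mmp3 had 1.99 (adjusted p = 0.0157) at 1 to 13 counts in the controls and 17 to 43 after IL-1β. Without IL-1β sample 3, only Ctsb of the 3 passed, and the adjusted p of Mmp3 was 0.161 there and 0.0565 without control 1. Cathepsin L (Ctsl) had -0.15 (adjusted p = 0.0981).

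Beside other acute phase genes, Saa3 had the largest log2 fold change. Saa4 lay above all 12 of the class 1 genes listed and 8 of the 9 class 2 genes tested, and Saa1 and Saa2 each lay above 8 of the 12 and 8 of the 9. Class 1 genes respond to IL-1 and IL-6 together, and of these 12 genes 11 were higher (6.97% of all genes tested), with a median log2 fold change of 0.95 and a range of -0.091 to 2.01. By adjusted p, at most 9.82e-11 for each, the first were the iron-siderophore binder Lcn2 (2.01), the pentraxin Apcs (1.70), the orosomucoids Orm1 (1.30) and Orm2 (1.48), and complement C3 (0.82). Class 2 genes respond to IL-6, and of the 9 tested 5 were higher (6.97% of all genes tested), with a median of 0.40. Hamp, which encodes the iron hormone hepcidin, led them with 3.30, from 6.91 ± 0.32 to 68.4 ± 14.3 CPM (SD, n = 3 each; adjusted p = 1.56e-14 from edgeR). Cp had 0.72, Lrg1 0.54, Fga 0.43 and Fgl1 0.40, with adjusted p from 1.78e-08 to 0.00759, and Fga did not pass without IL-1β sample 2 (0.0716). Whether the classes differ from each other was not tested.

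**Figure D4:**
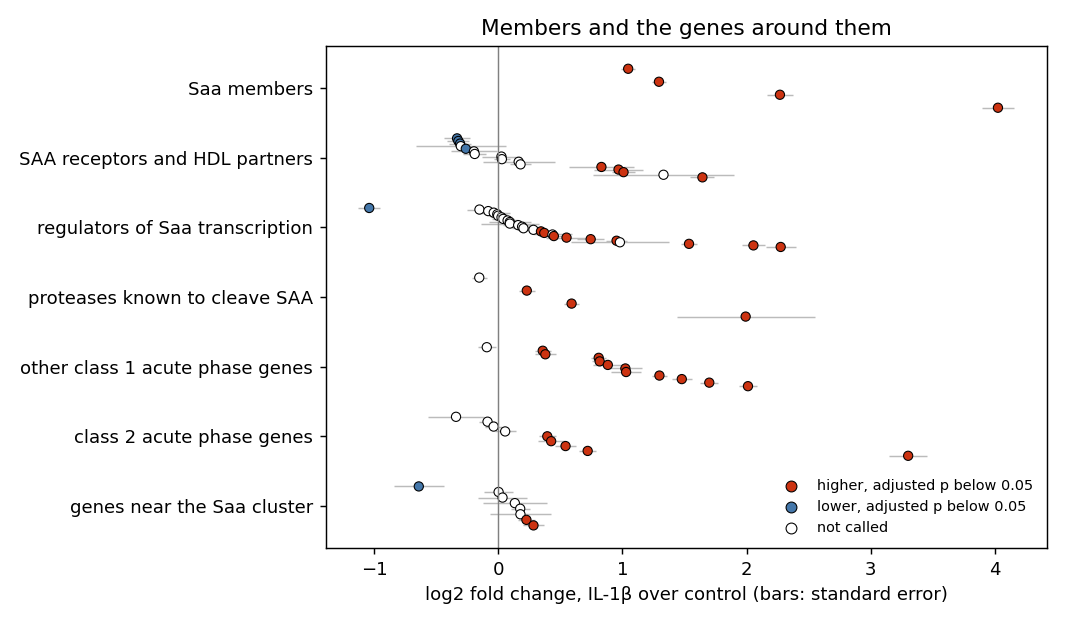
The log2 fold change of IL-1β over control for the members and for the tested genes of 6 lists, with bars of the standard error; red marks higher and blue lower at an adjusted p below 0.05, and open points did not pass. The members sit between 1.05 and 4.02, and the genes within 250 kb of the cluster between -0.64 and 0.28.

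The genes whose pattern over the 6 samples lay nearest to each member were found by the Euclidean distance between mean-centred log2(CPM + 1) values, as a description. Nearest to Saa1 were the orosomucoid Orm1 (distance 0.083), Wfdc21 (0.16) and Lcp1 (0.19), all nearer than Saa2 (0.31). Nearest to Saa2 were the kinase gene Pim1 (0.12), the methionine adenosyltransferase Mat1a (0.13) and Apip (0.15). Nearest to Saa4 were Adm (0.20), which encodes adrenomedullin, Cebpd (0.25) and Tifa (0.31), an adaptor upstream of NF-κB. Saa3 had no gene as near, with the IL-1 family cytokine Il1f9 at 0.63, the chemokine Cxcl2 at 0.71 and the dual oxidase maturation factor Duoxa2 at 0.75. Their control levels of 1.25, 7.92 and 0.452 CPM were far below that of Saa3.

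The cultures held the transcripts of hepatocytes at high level, with Alb at 16183 ± 515 CPM, Apoa1 at 2263 ± 598 CPM, Serpina1c at 1652 ± 95.5 CPM and Ttr at 1394 ± 51.3 CPM in the controls (SD, n = 3). Of the listed hepatocyte markers, Cps1 had 18 to 33 counts a library and Ass1 3 to 13. Of 9 hepatocyte markers tested, 7 were lower after IL-1β at an adjusted p below 0.05 in edgeR, against 6.44% of all genes tested. In DESeq2, 6 were lower. At an unadjusted p below 0.05 in edgeR, 8 were lower. Over all 11657 genes tested, in either direction, an unadjusted edgeR p of 0.0498 had rank 2741. The number that were higher was 0 in edgeR, also at an unadjusted p below 0.05, in DESeq2 and in limma.

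Because Saa3 is also made by macrophages, their markers are given beside it. The summed level of 15 Kupffer cell and macrophage markers was 248 to 280 CPM in the controls and 254 to 287 CPM after IL-1β, so these ranges overlap. Of the 11 tested, 0 passed in edgeR at an adjusted p below 0.05, where 6.97% of all genes tested were higher and 6.44% lower. At an unadjusted p below 0.05, 3 were higher. Over all 11657 genes tested, in either direction, an unadjusted edgeR p of 0.0498 had rank 2741. Of the 11 markers, 1 was higher in edgeR's exact test and 0 passed in DESeq2 or limma. Their median log2 fold change was 0.31, with 8 values above 0 and 3 below. The sum was mostly Cd68, at 172 to 204 CPM in the controls and 175 to 198 CPM after IL-1β, with a log2 fold change of -0.063. Those of the next most abundant, Ctss, Cd5l and Cd74, were -0.017, -0.21 and 0.56. Among the less abundant, C1qa had 0.75 (adjusted p = 0.211), Marco 0.67 (adjusted p = 0.141), Adgre1 0.64, Csf1r 0.44 and C1qb 0.31, and the groups did not overlap for Marco. The defining Kupffer cell markers Clec4f, Vsig4 and Timd4 were at 1.16, 0.294 and 0.0298 CPM in the controls, and Cd163 had 0 counts in every library. Summed endothelial markers were at 76.2 to 82.8 CPM in the controls and 75.4 to 79.4 CPM after IL-1β, and those of stellate cells and fibroblasts at 20.6 to 25.0 and 22.0 to 27.9 CPM. Most of that sum came from Eng and Lyve1, while the median log2 fold change of the 8 endothelial markers tested was -0.56. Of the 8, 2 were lower (6.44% of all genes tested), namely Clec4g (-2.87, adjusted p = 1.9e-05) and Kdr (-1.49, adjusted p = 0.00511). At an unadjusted p below 0.05, 4 of the 8 were lower. Lyve1 was higher (0.45, adjusted p = 0.0274), and Eng had 0.016. Lyve1 did not pass with total-count scaling (0.0506), without control 1 or 3 or without IL-1β sample 2 or 3 (0.0807 to 0.137). Of 2 stellate cell markers 0 passed in edgeR, DESeq2 or limma, with 0 at an unadjusted p below 0.05. Cholangiocyte markers were 315 to 329 CPM in the controls and 236 to 239 CPM after IL-1β, nearly all from Spp1, which fell by 1.20 on the log2 scale, and Sox9, while Krt7, Krt19, Epcam and Cftr were near 0.

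Of the 8 neutrophil markers in the table, S100a9, Mpo, Elane and Ltf had 0 counts in every library. S100a8 had 0 counts in each control and 19, 36 and 51 counts in the IL-1β samples, and the other 3 were at or below 0.326 CPM in each group. The part of these other cells in the values of Saa3 was not tested.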

How the data were processed

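RNA from 3 control and 3 IL-1β-treated samples of primary mouse hepatocytes was sequenced by QuantSeq as single-end reads of 75 bases. Per the labels, the authors aligned the reads with Bowtie2 to mm10 (GRCm38); the counting tool was not given in the sources used here. The design text names 3 samples a group while counting 2, and the table holds 3. The deposited raw counts per gene were used, and log2 normalised values (TMM and CPM) deposited by the authors were not. The authors' fold changes and p-values were not used. Groups were taken from the sample labels.

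Counts were filtered with filterByExpr, scaled by TMM and tested with the quasi-likelihood test of edgeR 4.0.16 in R 4.3.3, with Benjamini-Hochberg adjustment over 11657 genes. The standard error is the log2 fold change divided by the square root of F. Sums of members replaced their rows in refits. Ratios within a sample (0.5 added to each count) and shares were compared by exact permutation tests in scipy 1.17.1. Libraries held 9538741 to 11105408 counts, of which Rn45s took 11.7% to 14.2%, and 3 counts correspond to 0.270 to 0.315 CPM, a floor that covers counting error only. Replicates differed by more than sampling noise, with chi-square per degree of freedom from 4.16 to 10.0.

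No pairing of samples by replicate number was stated, and none was used in the main fit. Alternatives were DESeq2 1.42.0, other scalings and filters, edgeR's exact test, limma 3.58.1, the replicate block and leaving out each sample. Transcripts were compared on GENCODE vM21 with Biopython 1.88. The named genes are the members, up to 5 genes of each list by adjusted p, 11 genes fixed by name, the 4 most abundant genes of marker lists, tested genes within 100 kb and the 3 nearest patterns. Hepatocyte, macrophage, endothelial, cholangiocyte and neutrophil markers outside this rule, and the promoter motifs, were chosen after their values or sequences were seen. Members and lists were chosen with earlier results of these data known.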

Additional observations from a re-analysis of the deposited data

How the results depend on the processing

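All 4 members, their sums and the member pairs kept their direction under every alternative run, and the members and sums kept an adjusted p below 0.05 in each. With all 6 samples, total-count scaling gave the lowest log2 fold changes, 3.97 for Saa3, 2.21 for Saa4, 1.24 for Saa1 and 0.992 for Saa2. With each sample left out, the values were 3.82 to 4.16 for Saa3, 2.09 to 2.37 for Saa4, 1.26 to 1.33 for Saa1, 1.01 to 1.09 for Saa2 and 1.16 to 1.23 for the sum of Saa1 and Saa2. The pair differences ranged there from 0.24 to 0.26 for Saa1 against Saa2 and from -2.88 to -2.55 for Saa1 against Saa3. The count of genes called, 1563, was 1488 to 1728 with all samples and 1131 to 1596 with 1 left out. Total-count scaling moved the median of all genes to -0.055.

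Same-numbered samples had correlations of 0.075, 0.028 and -0.0050 in their deviations from group means, and differently numbered ones from -0.11 to 0.099. Correlations over all genes with 3 samples a group cannot decide whether same-numbered samples shared a preparation. With the replicate block, the count of genes called was 1671, 1 cholangiocyte marker (Sox9) was higher, and no call of a member changed.

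Counts of list members moved as follows. Genes lower among receptors and HDL partners went from 4 to 2 in DESeq2 and to 1 to 4 with a sample left out. Proteases lower went from 0 to 1 with upper-quartile or total-count scaling, and proteases higher ranged from 1 to 3 with a sample left out. Macrophage markers higher went from 0 to 1 in edgeR's exact test (Cd74) and ranged from 0 to 2. Neutrophil markers higher went from 1 to 0 with a minimum of 10 counts in each sample. Endothelial markers higher went from 1 to 0 with total counts alone and ranged from 0 to 1, and those lower went from 2 to 1 with that minimum. Cholangiocyte markers higher went from 0 to 1 in DESeq2, with that minimum and in limma with a pseudocount of 1, and ranged from 0 to 1. Genes near the cluster that were higher went from 2 to 0 with total counts alone and ranged from 0 to 2, and those lower ranged from 0 to 1. The cause was not tested.

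Direction changed in values near 0. Eng was -0.013 under upper-quartile and -0.039 under total-count scaling, and from -0.048 to 0.12 with a sample left out. Rela was 0.0012 in DESeq2, 0.0022 with that minimum and from -0.038 to 0.045 with a sample left out. Sergef was -0.018 and Vimp -0.024 with total counts, and with a sample left out from -0.15 to 0.15 and from -0.0091 to 0.051. With a sample left out, Ctss ranged from -0.077 to 0.022 and Hps5 from -0.11 to 0.37. Genes with few counts, such as Fpr2, are limited by depth.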
